A study of Mus musculus with 12 samples.

Results

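Inhibitory checkpoint genes were described in CD8+ T cells sorted from mouse tumors by a fluorescent reporter of the adenosine receptor A2AR. The set was 10 genes (Pdcd1, Havcr2, Lag3, Tigit, Ctla4, Cd160, Btla, Cd274, Cd96 and Lilrb4a), chosen by name and found by their Ensembl identifiers among 52636 identifiers in the count table. All 10 passed the filter on low counts, as did 14173 genes in all. Of these, 9 encode receptors, while Cd274 encodes PD-L1, the ligand of PD-1 and the target of the antibody used.

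The cells came from A2AR eGFP reporter mice, female C57BL/6 animals that carry a bacterial artificial chromosome, Tg(Adora2a-EGFP), in which regulatory sequence of Adora2a drives EGFP. GFP therefore reports the transgene rather than the receptor protein. All animals bore AT3ova tumors, a mouse mammary carcinoma line that expresses ovalbumin, and the CD8+ tumor infiltrating lymphocytes were sorted on day 21 after tumor injection. There were 3 libraries in each of 4 groups: non-treated CD8+GFP+ (KT13, KT15 and KT17), non-treated CD8+GFP- (KT14, KT16 and KT18), anti-PD-L1 CD8+GFP+ (KT19, KT21 and KT23) and anti-PD-L1 CD8+GFP- (KT20, KT22 and KT24). Anti-PD-L1 was given on days 14 and 18, and each library pooled cells of 3 mice. Animals were 6 to 16 weeks old in the experiments of the study as a whole, and no batch or pairing of libraries is named in the labels. The study's own displays of these data count fewer GFP+ libraries in a group than the count table holds, without naming those left out, and all libraries of the table are used here. Each library was a QuantSeq library, which reads the 3′ ends of messenger RNA, and held between 11292699 and 19023900 counted reads.

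Inhibitory checkpoint receptors are surface proteins that dampen signaling through the T cell receptor or its costimulators when they meet ligands on tumor cells, antigen-presenting cells or other T cells. PD-1 and CTLA-4 belong to the CD28 family, TIM-3 and LAG-3 are often found together with PD-1 on chronically stimulated T cells, TIGIT and CD96 share nectin-type ligands with the activating receptor CD226, and BTLA and CD160 share the ligand HVEM. In tumors, CD8+ T cells that see antigen for long periods often carry several of these receptors at the same time.

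Libraries KT13 and KT21, both GFP+, stood apart from the rest. By median Spearman correlation with the rest they reached 0.941 and 0.935, against 0.967 to 0.977 for the other 10, and their sample quality weights were 0.348 and 0.229, against 0.718 to 1.89. Results are therefore given for all 12 libraries and for the 10 libraries that remain without KT13 and KT21, where 14747 genes were tested. Lag3 was the member in which this pair departed most visibly, at 32.0 and 38.9 normalized CPM (reads scaled to library size) against 7.10 to 14.8 CPM in the other 10. Ctla4 lay at 77.4 and 40.7 CPM in the same pair, below the 116 to 265 CPM of the other libraries, and Cd274 lay at 7.39 and 7.58 CPM, below 8.17 to 16.1 CPM. For Pdcd1, Havcr2, Tigit, Cd160 and Btla both libraries lay inside the range of the others.

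The promoters of Havcr2, Pdcd1 and Ctla4 are shown because edgeR called these 3 genes higher with anti-PD-L1 in the 10 libraries. Each sequence is the 250 bases before the start of the transcript, from RefSeq on GRCm38.p6, written in the direction of transcription. It spans chr11:46454681-46454930 on the plus strand for Havcr2, chr1:94052554-94052803 on the minus strand for Pdcd1 and chr1:60908775-60909024 on the plus strand for Ctla4. Capitals mark matches on either strand to 1 of the following. They are TGANTCA, a loose form of the AP-1 motif with any middle base, the cAMP response element core TGACG, and the NFAT core GGAAA.
Havcr2: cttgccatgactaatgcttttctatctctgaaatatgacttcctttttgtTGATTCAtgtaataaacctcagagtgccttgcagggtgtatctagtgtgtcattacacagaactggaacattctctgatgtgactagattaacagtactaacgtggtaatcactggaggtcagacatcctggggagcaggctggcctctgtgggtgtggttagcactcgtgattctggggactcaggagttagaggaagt
Pdcd1: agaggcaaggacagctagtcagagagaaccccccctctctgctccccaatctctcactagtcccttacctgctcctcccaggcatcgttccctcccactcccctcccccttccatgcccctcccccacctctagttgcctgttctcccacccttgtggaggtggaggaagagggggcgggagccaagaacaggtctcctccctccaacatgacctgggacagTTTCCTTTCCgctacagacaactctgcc
Ctla4: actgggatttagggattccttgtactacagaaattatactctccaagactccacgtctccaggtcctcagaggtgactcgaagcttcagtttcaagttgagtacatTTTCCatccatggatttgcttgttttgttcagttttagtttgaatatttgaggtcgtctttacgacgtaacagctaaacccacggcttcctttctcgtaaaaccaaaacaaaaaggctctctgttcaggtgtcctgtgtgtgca
Havcr2 held 1 match to the loose pattern TGANTCA, written TGATTCA, which began at position -200 counted from the transcript start. Pdcd1 held adjoining NFAT core matches at -28 and -23, and Ctla4 held 1 at -144. Of 32851 promoters of the same length, 6.749% held TGANTCA, 55.57% held GGAAA and 17.77% held TGACG, so the NFAT core is common in any promoter. The full cAMP response element TGACGTCA, present in 1.546% of promoters, occurred in none of the 9 promoters found for 8 members. Cd160, with 2 annotated starts, held the only TGACG match among the members, at -63 of its second start. These are matches of letters, and binding was not measured.

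The question put first was how the checkpoint genes responded to anti-PD-L1. Averaged over GFP+ and GFP- cells, Havcr2 was the member that rose across all 12 libraries, to 1.87 times its non-treated level (95% interval 1.52 to 2.30). Without KT13 and KT21, edgeR called Havcr2, Pdcd1 and Ctla4 higher, at 1.95, 1.56 and 1.49 times the non-treated level. DESeq2 on the same 10 libraries called Havcr2 and Pdcd1 but not Ctla4. The share of all genes that DESeq2 called in this comparison was not calculated, so its calls cannot be set against the other genes. Lag3, Cd160, Btla, Cd274, Cd96, Tigit and Lilrb4a did not pass the test in either set. After Benjamini-Hochberg adjustment over all genes, edgeR's quasi-likelihood test called 1 of 10 members with 12 libraries, against 0.395% of all genes tested, and 3 of 10 with 10 libraries, against 1.36%. The log2 fold change was positive for 9 of 10 members in the 12 libraries, with a median of 0.29 against -0.0054 over all genes, and for 8 of 10 in the 10 libraries, with a median of 0.26.

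**Figure D1:**
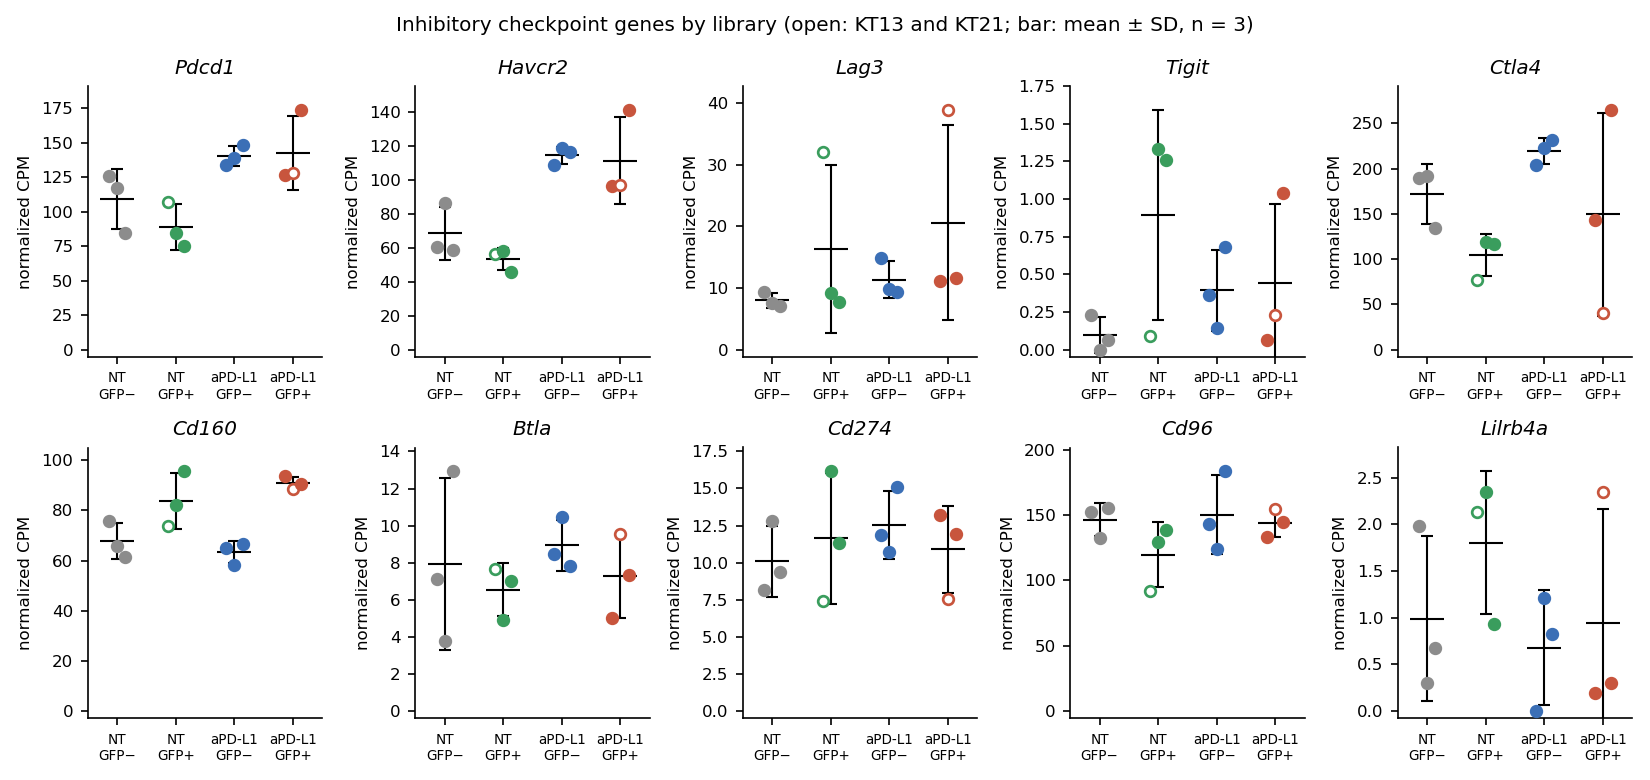
Normalized CPM (vertical axes, linear, starting at 0) of the 10 genes in each library of the 4 groups; NT is non-treated, aPD-L1 is anti-PD-L1, points are libraries, open points are KT13 and KT21, and bars are the mean ± SD of 3 libraries. Havcr2 was at 46.0 to 86.6 CPM in the 6 non-treated libraries and at 96.3 to 141 CPM in the 6 anti-PD-L1 libraries, and the open points stand away from the others for Lag3 and Ctla4.

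Havcr2 encodes TIM-3, a receptor for galectin-9 and other ligands (chr11:46454935-46481255, plus strand, GRCm38). In non-treated cells it was at 56.2, 58.4 and 46.0 CPM in the GFP+ libraries KT13, KT15 and KT17 and at 60.3, 86.6 and 58.6 CPM in the GFP- libraries KT14, KT16 and KT18. After anti-PD-L1 it was at 96.3, 96.8 and 141 CPM in KT19, KT21 and KT23 and at 109, 119 and 116 CPM in KT20, KT22 and KT24. Every anti-PD-L1 library lay above every non-treated library, in GFP+ and in GFP- cells alike. The log2 fold change averaged over GFP was 0.90 (SE 0.14, 95% interval 0.60 to 1.20, adjusted p = 0.00855 by edgeR's quasi-likelihood test) and ranked 25 among the 14173 genes by p. With 10 libraries it was 0.97 (0.71 to 1.22, adjusted p = 3.87e-05 by edgeR). Leaving out each library in turn kept the call every time, with adjusted p between 0.00221 and 0.0454 by edgeR and log2 fold changes between 0.81 and 1.04.

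Within each cell population the Havcr2 change was in the same direction, but its call depended on the libraries used. In GFP+ cells the log2 fold change was 1.06 (0.63 to 1.48, adjusted p = 0.0946 by edgeR) with 12 libraries and 1.19 (0.79 to 1.59, adjusted p = 0.00239) with 10. It passed the test also when KT21 alone was left out (adjusted p = 0.0344 by edgeR). In GFP- cells, which include neither KT13 nor KT21, it was 0.74 in both sets, with adjusted p = 0.589 by edgeR when the spread was estimated from 12 libraries and 0.0295 from 10. The rise in GFP+ cells was not shown to differ from that in GFP- cells: the interaction was 0.32 (-0.28 to 0.91) with 12 libraries and 0.44 (-0.07 to 0.96) with 10, with unadjusted p = 0.273 and 0.0867 by edgeR.

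Pdcd1 encodes PD-1, the receptor blocked indirectly when its ligand is bound by the antibody (chr1:94038305-94052553, minus strand). Its level was 107, 84.2 and 75.04 CPM in the non-treated GFP+ libraries KT13, KT15 and KT17, and 126, 117 and 84.7 CPM in the non-treated GFP- libraries KT14, KT16 and KT18. After anti-PD-L1 it was 127, 128 and 174 CPM in KT19, KT21 and KT23, and 134, 139 and 148 CPM in KT20, KT22 and KT24. The anti-PD-L1 libraries lay above the non-treated ones in both populations without overlap. The non-treated GFP+ and GFP- libraries overlapped, with KT13 above KT18. In non-treated cells the log2 difference with GFP was -0.30 (-0.71 to 0.11) with 12 libraries. With 10 it was -0.46 (-0.79 to -0.13, unadjusted p = 0.00888, adjusted p = 0.334 by edgeR), which was not called. After anti-PD-L1 the difference with GFP was 0.03 (-0.39 to 0.44) and 0.10 (-0.23 to 0.42). Averaged over GFP, the log2 fold change with anti-PD-L1 was 0.52 (0.23 to 0.82, adjusted p = 0.188 by edgeR) with 12 libraries and 0.64 (0.41 to 0.87, adjusted p = 0.00205) with 10. In GFP+ cells it was 0.69 (adjusted p = 0.379 by edgeR) and 0.92 (adjusted p = 0.00883), and in GFP- cells 0.36 in both sets (adjusted p = 1 and 0.552). Pdcd1 was the only member whose interaction had an unadjusted p under 0.05 without KT13 and KT21, at 0.55 (0.09 to 1.01, unadjusted p = 0.0204 by edgeR, not called after adjustment), and with 12 libraries it was 0.32 (-0.26 to 0.91).

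Cd274, which encodes PD-L1 (chr19:29367455-29388095, plus strand), showed no separation of the groups. It was at 7.39, 16.1 and 11.4 CPM in non-treated GFP+, 8.17, 12.8 and 9.37 CPM in non-treated GFP-, 13.2, 7.58 and 11.9 CPM in anti-PD-L1 GFP+ and 11.9, 10.7 and 15.1 CPM in anti-PD-L1 GFP- libraries. The lowest values, in KT13 and KT21, came from both treatments. The log2 fold change with anti-PD-L1 was 0.11 (-0.37 to 0.58) with 12 libraries and 0.09 (-0.30 to 0.48) with 10. These intervals include changes in either direction. Cd274 shares 511 exonic bases with an annotated antisense gene, and the strand setting of the counting was not given in the sources used here.

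Ctla4 encodes CTLA-4, which competes with CD28 for CD80 and CD86 (chr1:60887000-60915832, plus strand). It was at 77.4, 119 and 116 CPM in the non-treated GFP+ libraries KT13, KT15 and KT17, and at 189, 192 and 134 CPM in the non-treated GFP- libraries KT14, KT16 and KT18. After anti-PD-L1 it was at 143, 40.7 and 265 CPM in KT19, KT21 and KT23, and at 204, 222 and 232 CPM in KT20, KT22 and KT24. The GFP- libraries separated by treatment without overlap, whereas KT21 was the lowest and KT23 the highest of all 12 libraries although both were anti-PD-L1 GFP+. The log2 fold change averaged over GFP was 0.44 (-0.22 to 1.09, adjusted p = 0.857 by edgeR) with 12 libraries. Without KT13 and KT21 it was 0.57 (0.31 to 0.84, adjusted p = 0.0218 by edgeR), a rise that DESeq2 did not call on those libraries. With single libraries left out of the 12 it ranged from 0.091 without KT23 to 0.66 without KT21, and edgeR called it in 0 of those 12 fits. Even so, the remaining pair of anti-PD-L1 GFP+ libraries differed from each other by more than any other pair within a group of the 10.

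In non-treated cells the Ctla4 levels of the GFP+ libraries also lay below those of the GFP- libraries without overlap. The log2 difference there was -0.72 (-1.65 to 0.21, adjusted p = 0.879 by edgeR) with 12 libraries and -0.55 (-0.93 to -0.16, unadjusted p = 0.00712, adjusted p = 0.305) with 10. After anti-PD-L1 it was -0.55 (-1.48 to 0.38) and -0.11 (-0.48 to 0.27). Averaged over treatments the difference was -0.64 (-1.29 to 0.02) and -0.33 (-0.60 to -0.06), and the adjusted p, 0.619 and 0.344 by edgeR, did not pass. Ctla4 is known to be abundant in regulatory T cells, and the summed level of 4 markers of CD4 and regulatory T cells was 82.0 to 132 CPM in GFP+ and 123 to 192 CPM in GFP- libraries. Foxp3 was at 6.44 to 24.9 CPM and was detected in every library, while Cd4 was at 0 to 0.919 CPM and at 0 in 7 of 12 libraries. Most of the sum therefore came from Il2ra and Ikzf4, and it is not a measure of Foxp3 or Cd4. Of the 4 markers 3 were tested, and Ikzf4 was called lower in GFP+ cells with 10 libraries, at -0.60 (adjusted p = 0.0139 by edgeR). With 12 libraries 0 of the 3 were called. Ctla4 itself was not called with GFP in either set. The part of such cells in the Ctla4 difference was not tested. In bulk libraries, fewer cells of a type and less RNA per cell cannot be told apart.

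Lag3 encodes LAG-3, a receptor related to CD4 that binds MHC class II and other ligands (chr6:124904361-124911705, minus strand). It was at 32.0, 9.24 and 7.70 CPM in non-treated GFP+, 9.36, 7.56 and 7.10 CPM in non-treated GFP-, 11.2, 38.9 and 11.7 CPM in anti-PD-L1 GFP+ and 14.8, 9.91 and 9.36 CPM in anti-PD-L1 GFP- libraries. The highest value in each GFP+ group was KT13 or KT21, and the other GFP+ libraries were close to the GFP- ones. Averaged over treatments, Lag3 in GFP+ over GFP- cells was 0.94 on the log2 scale (0.12 to 1.75, adjusted p = 0.532 by edgeR) with 12 libraries and 0.05 (-0.36 to 0.46) with 10, so that difference rested on the pair. The change of Lag3 with anti-PD-L1 averaged over GFP was 0.42 (-0.39 to 1.24) with 12 libraries and 0.47 (0.06 to 0.88, unadjusted p = 0.0264, adjusted p = 0.349 by edgeR) with 10, and was not called in either set. It ranged from 0.0046 without KT21 to 0.89 without KT13 when single libraries were left out, and was called in 0 of those 12 fits. In GFP- cells the anti-PD-L1 libraries of Lag3 lay above the non-treated ones, although 9.3614 CPM in KT24 and 9.3607 CPM in KT14 were all but equal.

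**Figure D2:**
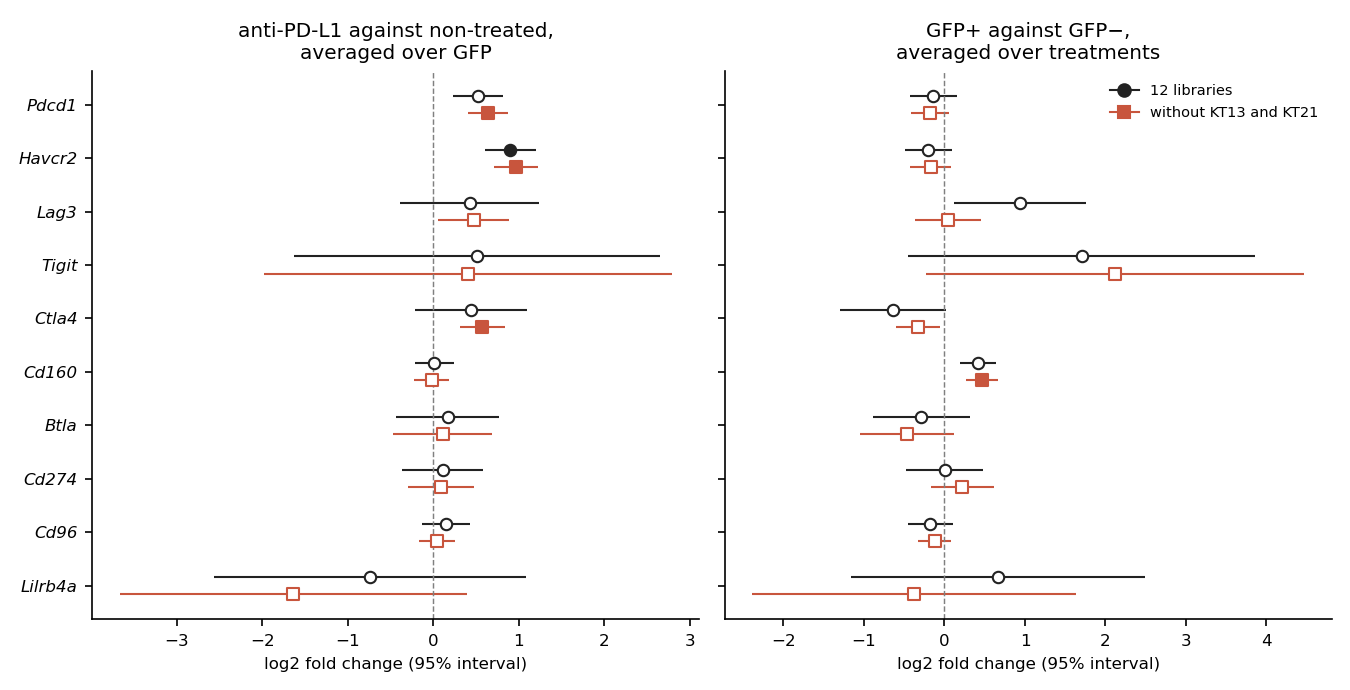
Log2 fold change with its 95% interval (horizontal axes) for each gene, for anti-PD-L1 against non-treated averaged over GFP (left) and for GFP+ against GFP- averaged over treatments (right), with 12 libraries (circles) and without KT13 and KT21 (squares); filled symbols have an adjusted p under 0.05. Havcr2 is filled in both sets on the left, Pdcd1 and Ctla4 are filled there with 10 libraries, and Cd160 is the filled symbol on the right with 10 libraries.

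The second question was whether cells that carried the reporter differed in their checkpoint genes. Adora2a, the gene of the reporter, checked the sort: it was at 60.2 to 111 CPM in the 6 GFP+ libraries and at 19.7 to 34.6 CPM in the 6 GFP- libraries, a log2 difference of 1.52 averaged over treatments (adjusted p = 3.65e-04 by edgeR). Among the checkpoint genes Cd160 was higher in GFP+ cells, and this passed the test without KT13 and KT21 but not with 12 libraries. With 12 libraries edgeR called 0 of 10 members averaged over treatments, against 0.31% of all genes, and 2 members, Lag3 and Cd160, had an unadjusted p under 0.05, as did 1160 of the 14173 genes. DESeq2 and limma voom with sample quality weights each called 1, Cd160, against 1.11% and 0.889% of all genes by the same tools. With 10 libraries edgeR called 1 of 10, against 1.08%. The members had no shared direction, with 5 higher and 5 lower in the 12 libraries and a median log2 difference of -0.07 against 0.0037 over all genes.

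Cd160 encodes a receptor of cytotoxic lymphocytes that binds HVEM and MHC class I molecules (chr3:96798763-96829351, minus strand). It was at 73.7, 82.1 and 95.6 CPM in the non-treated GFP+ libraries KT13, KT15 and KT17, and at 75.9, 65.9 and 61.6 CPM in the non-treated GFP- libraries KT14, KT16 and KT18. After anti-PD-L1 it was at 93.7, 88.7 and 90.6 CPM in KT19, KT21 and KT23, and at 65.2, 58.3 and 66.8 CPM in KT20, KT22 and KT24. After anti-PD-L1 all GFP+ libraries lay above all GFP- ones, while in non-treated cells KT13 fell below KT14. Averaged over treatments the log2 difference was 0.41 (0.19 to 0.64, adjusted p = 0.184 by edgeR), or 1.33 times the GFP- level, with 12 libraries, and 0.46 (0.26 to 0.66, adjusted p = 0.0137), or 1.38 times, with 10. It was 0.31 (-0.013 to 0.62) in non-treated cells and 0.52 (0.20 to 0.84, unadjusted p = 0.00355, adjusted p = 0.677 by edgeR) after anti-PD-L1. Cd160 did not follow the treatment, with a log2 fold change of 0.01 (-0.21 to 0.24), which changed sign to -0.02 without KT13 and KT21. Its neighbour Pdzk1, on the opposite strand, shares 68 exonic bases with it and had 0 to 33 reads per library.

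Cd160 is also a gene of natural killer cells, and markers of these cells moved with GFP. The summed level of 6 such markers was 293 to 386 CPM in GFP+ and 218 to 305 CPM in GFP- libraries, and none of the 6 was at 0 in all libraries. Averaged over treatments with 12 libraries, their median log2 difference was 0.87, and 4 of 6 had an unadjusted p under 0.05 by edgeR. Among the 6, 2 were called higher by edgeR, against 0.31% of all genes. These were Klrb1c, which encodes NK1.1, with a log2 difference of 1.26 (adjusted p = 0.00406 by edgeR), and Fcer1g, an adaptor of activating receptors, with 1.02 (adjusted p = 0.0102). Ncr1, which encodes NKp46, was at 1.21 to 6.65 CPM. The sums of 8 CD8 T cell markers overlapped, at 4183 to 6396 CPM in GFP+ and 4890 to 5823 CPM in GFP- libraries. Averaged over treatments, 2 of these 8 were called lower in GFP+ cells with 10 libraries, against 1.08% of all genes, and 0 with 12. The part of natural killer cells in the Cd160 difference was not tested.

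Btla encodes BTLA, the other HVEM receptor (chr16:45224315-45257670, plus strand). It was at 7.65, 4.94 and 7.04 CPM in non-treated GFP+, 7.15, 3.76 and 12.9 CPM in non-treated GFP-, 5.02, 9.55 and 7.33 CPM in anti-PD-L1 GFP+ and 8.46, 10.5 and 7.85 CPM in anti-PD-L1 GFP- libraries. The non-treated GFP- libraries held both the lowest and the highest value, so the groups could not be separated. Btla in GFP+ over GFP- cells was -0.29 (-0.89 to 0.32) with 12 libraries and -0.47 (-1.05 to 0.11) with 10. With treatment it was 0.17 (-0.43 to 0.77) and 0.11 (-0.47 to 0.69).

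Cd96 encodes CD96, a nectin receptor of T and natural killer cells (chr16:46035657-46120251, minus strand). It ranged from 91.6 CPM in KT13 to 183 CPM in KT24, with group means of 120 ± 24.9 CPM in non-treated GFP+, 146 ± 12.5 CPM in non-treated GFP-, 144 ± 10.8 CPM in anti-PD-L1 GFP+ and 150 ± 30.3 CPM in anti-PD-L1 GFP- libraries (SD over 3 libraries each). It was not called in any comparison. Its change with treatment was 0.15 (-0.13 to 0.43) with 12 libraries and 0.04 (-0.16 to 0.25) with 10, and its difference with GFP was -0.17 (-0.46 to 0.11) and -0.12 (-0.33 to 0.09).

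Tigit and Lilrb4a were counted too rarely for a comparison of levels. Tigit, a nectin receptor that binds CD155 (chr16:43648867-43664146, minus strand), had 0 to 21 reads per library, and a count of 0 allows up to 0.152 CPM in the library without a read, KT16. It was at 0.0890, 1.33 and 1.26 CPM in non-treated GFP+ and at 0.227, 0 and 0.0612 CPM in non-treated GFP- libraries. After anti-PD-L1 it was at 0.0644, 0.227 and 1.04 CPM in GFP+ and at 0.362, 0.143 and 0.679 CPM in GFP- libraries. KT15, KT17 and KT23 were the highest, all GFP+, but each GFP+ group also held a library near the lowest. Averaged over treatments the difference with GFP was 1.705 (-0.45 to 3.86) with 12 libraries and 2.12 (-0.23 to 4.47) with 10, and the change with anti-PD-L1 was 0.51 (-1.63 to 2.65) and 0.40 (-1.98 to 2.79), none of which passed the test. In non-treated cells alone the difference with GFP was 3.25 (0.04 to 6.46, unadjusted p = 0.0477, adjusted p = 0.818 by edgeR) with 12 libraries. With 10 it was 3.77 (0.32 to 7.22, unadjusted p = 0.0335, adjusted p = 0.489 by edgeR), and neither was called.

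Lilrb4a encodes an inhibitory receptor of the leukocyte immunoglobulin-like family that is known best from myeloid and mast cells (chr10:51490956-51496611, plus strand). It had 0 to 37 reads per library, or 0 to 2.35 CPM. Of its 5227 exonic bases, 1846 are shared on the same strand with the annotated gene Gm49339, which had 0 reads in every library, and its near-identical neighbour Lilr4b had 367 to 625 reads. Reads of the pair could be split or left uncounted, so the level of Lilrb4a is uncertain. Its change with treatment was -0.74 (-2.56 to 1.09) with 12 libraries and -1.64 (-3.67 to 0.39) with 10, and its difference with GFP changed sign, from 0.67 (-1.16 to 2.49) to -0.38 (-2.39 to 1.64).

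Set against all genes, the single comparisons gave few calls. For GFP+ against GFP- cells without treatment, edgeR called 0 of 10 members with 12 libraries (0.00706% of all genes) and 0 with 10 libraries (0.339%), as did DESeq2, which called 0.374% and 1.1% of the genes to which it gave an adjusted p, the base of every DESeq2 share here. By edgeR 1 member, the rarely counted Tigit, had an unadjusted p under 0.05 with 12 libraries, as did 857 of 14173 genes. With 10 libraries 5 members had one, as did 1362 of 14747 genes. Of these members, Pdcd1, Havcr2 and Ctla4 were lower in GFP+ cells, and Tigit and Cd160 were higher. Havcr2 and Ctla4 lay below GFP- cells without overlap, 2 of 10 members against 12.8% of all genes. For Havcr2 the log2 difference was -0.36 (-0.78 to 0.06) with 12 libraries. With 10 it was -0.39 (-0.76 to -0.03, unadjusted p = 0.0372, adjusted p = 0.503 by edgeR). Between GFP+ and GFP- cells given anti-PD-L1, edgeR called 0 with 12 libraries (0.0282%) and 0 with 10 (0.17%), with Cd160 at an unadjusted p under 0.05 in both, as were 578 and 788 of all genes. DESeq2 called 0 members with 12 libraries (0.375% of all genes) and 1, Cd160, with 10 (0.502%). Cd160 alone separated there, 1 of 10 members against 10.6% of all genes.

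In GFP+ cells given anti-PD-L1, set against non-treated ones, edgeR called 0 of 10 with 12 libraries (0.0141% of all genes), where Pdcd1 and Havcr2 had an unadjusted p under 0.05, as did 955 of all genes, and DESeq2 called 1, Havcr2, against 0.697% of all genes. With 10 libraries edgeR called Pdcd1 and Havcr2, 2 of 10 against 0.563%. The same pair separated without overlap, 2 of 10 against 10.3% of all genes. In GFP- cells edgeR called 0 with 12 libraries (0% of all genes, of which 487 had an unadjusted p under 0.05, with 1 member among them), as did DESeq2 (0.233%). With 10 libraries edgeR called Havcr2, 1 of 10 against 0.373%. Pdcd1, Havcr2, Lag3 and Ctla4 lay above without overlap, 4 of 10 members against 12.3% of all genes. Total reads also separated in GFP- cells, at most 13760772 after anti-PD-L1 and at least 16440398 without it, and the CPM are scaled for this. The interaction of GFP and treatment called 0 members and 0% of all genes by edgeR in both sets, and DESeq2 called 0 members and 0% of all genes in both. By edgeR 0 members had an unadjusted p under 0.05 with 12 libraries and 1 with 10, against 295 and 632 of all genes. The comparisons within GFP+ or GFP- cells share libraries with the averaged ones and are not separate evidence.

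**Figure D3:**
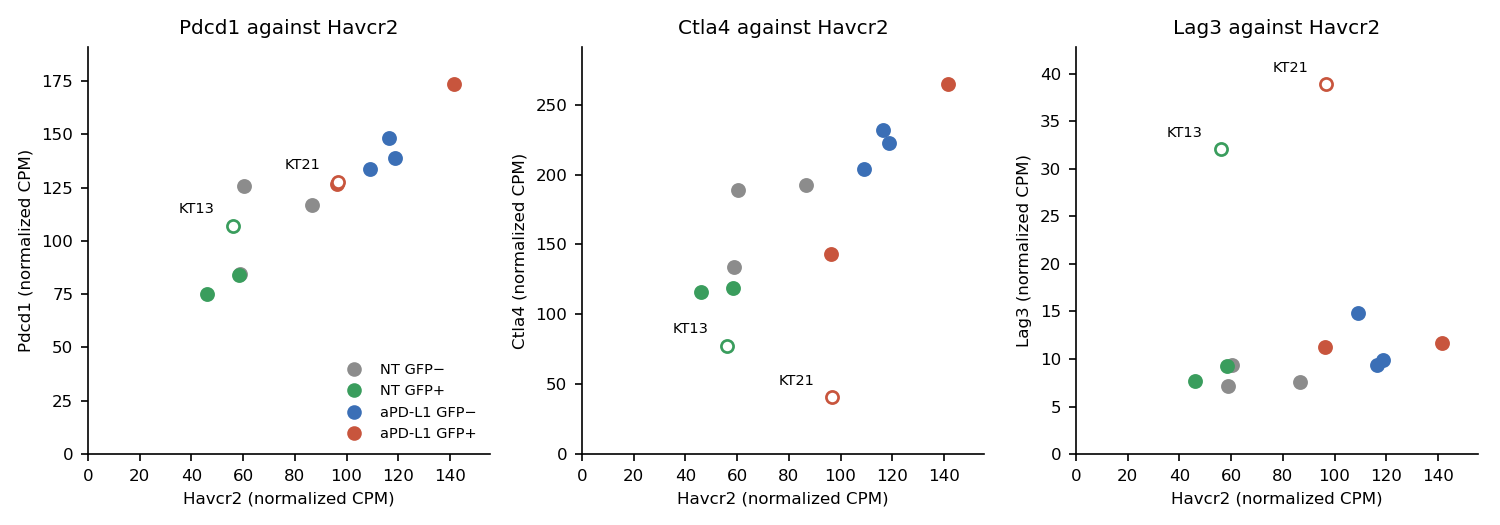
Pdcd1, Ctla4 and Lag3 against Havcr2, all in normalized CPM on linear axes, with 1 point per library colored by group and open points for KT13 and KT21. Pdcd1 rises with Havcr2 over all 12 libraries, Ctla4 does so apart from the open points, and Lag3 stays between 7.10 and 14.8 CPM apart from the same pair.

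Havcr2 and Pdcd1 varied together over the libraries. Their Spearman correlation of CPM was 0.97 over 12 libraries (Pearson 0.90) and 0.98 over 10 (Pearson 0.92), which includes the difference between treatments. After the mean of each group was subtracted from log2 CPM, the Spearman correlation of Havcr2 with Pdcd1 was still 0.81 over 12 and 0.77 over 10 libraries. For Havcr2 with Ctla4 it was 0.25 and 0.79 within groups, and for Havcr2 with Lag3 it was 0.13 and 0.05. The points share the 4 groups and their sequencing depth, so these values are descriptions. Among all 14172 other genes, Prf1, which encodes perforin, followed Havcr2 most closely by Spearman correlation of CPM over 12 libraries, at 0.97 (Pearson 0.96), followed by Pdcd1 and by Chst11 at 0.96 (Pearson 0.94). The genes closest to Pdcd1 were Havcr2, Prf1 at 0.95 (Pearson 0.89) and Slc2a3, which encodes a glucose transporter, at 0.93 (Pearson 0.85). Gzmb, which encodes granzyme B, was closest to Ctla4 at 0.97 (Pearson 0.93), followed by Rac1 at 0.96 (Pearson 0.94) and Nedd9 at 0.96 (Pearson 0.88). Without KT13 and KT21 the Spearman values of these genes were between 0.93 and 0.98. For Lag3 the closest were Nab1 at 0.96, Blmh at 0.95 and Cox4i1 at 0.93, whose Pearson correlations fell from 0.92, 0.93 and 0.93 to 0.74, 0.79 and 0.71 without the pair. For Tigit the closest were Mir5136 at 0.90 and Plekhf1 and Chchd1 at 0.84 each, over counts near 0.

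Other genes of the pathway were taken from lists chosen by function. Of 13 ligand genes 10 were tested. Cd86, a ligand of CTLA-4 and CD28, was lower in GFP+ cells, at -0.80 averaged over treatments (adjusted p = 0.0427 by edgeR with 12 libraries and 0.00324 with 10), from 24.8 to 42.4 CPM in GFP+ against 39.8 to 61.2 CPM in GFP- libraries. Lgals3, a ligand of LAG-3, was lower by the same comparison with 10 libraries only, at -0.65 (adjusted p = 0.00183 by edgeR). None of the 10 ligands was called with anti-PD-L1 by edgeR in either set, where 1 and 2 had an unadjusted p under 0.05, and Cd274 is one of them.

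The list of paired activating receptors held 3 genes, Cd28, Icos and Cd226. Of these, Icos rose with anti-PD-L1 without KT13 and KT21, by 0.50 on the log2 scale (adjusted p = 0.00599 by edgeR). It was not called with 12 libraries. Of 13 other inhibitory receptors and ectoenzymes, Entpd1, which encodes CD39, rose with anti-PD-L1 in both sets, by 0.67 (adjusted p = 0.0181 and 0.00267 by edgeR). Its levels were 18.3 to 29.4 CPM in non-treated and 32.3 to 41.3 CPM in anti-PD-L1 libraries, which did not overlap. Klrc1, which encodes the inhibitory receptor NKG2A, rose with 10 libraries, by 0.43 (adjusted p = 0.00916 by edgeR). Apart from Adora2a, none of these 13 was called with GFP.

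Of 17 transcriptional regulators linked to checkpoint expression, Prdm1, which encodes Blimp-1, was the one called. It rose with anti-PD-L1 by 1.05 with 12 libraries (adjusted p = 0.0485 by edgeR) and by 1.04 with 10 (adjusted p = 8.79e-04), from 9.35 to 23.7 CPM in non-treated to 22.1 to 45.1 CPM in anti-PD-L1 libraries. Tox, Eomes, Tcf7, Batf and the Nr4a genes were tested and not called by edgeR in either averaged comparison, where 6 of 17 regulators had an unadjusted p under 0.05 with treatment and 2 with GFP in the 12 libraries. Of 11 genes of signaling downstream of the receptors, such as Ptpn6 and Ptpn11, which encode SHP-1 and SHP-2, edgeR called 0 in both averaged comparisons and both sets, with 0 and 1 at an unadjusted p under 0.05 for treatment and GFP in the 12 libraries and 2 and 4 in the 10.

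**Figure D4:**
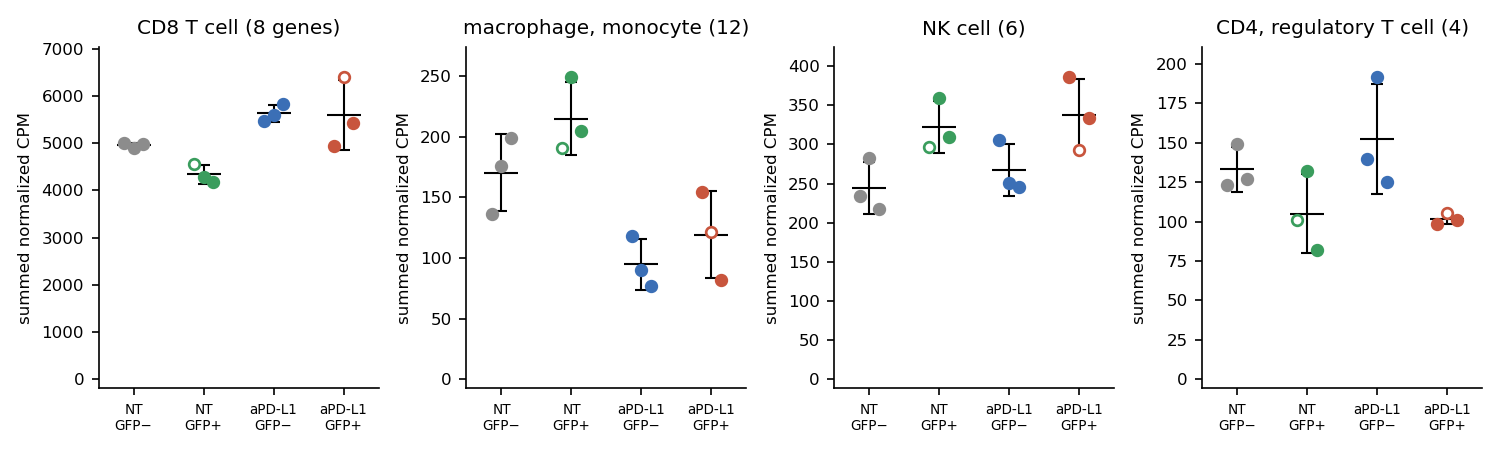
Summed normalized CPM of the marker genes of 4 cell types (vertical axes, linear) in each library of the 4 groups, with bars for the mean ± SD of 3 libraries and open points for KT13 and KT21. CD8 T cell markers were at 4183 to 4992 CPM in non-treated and 4947 to 6396 CPM in anti-PD-L1 libraries, and macrophage and monocyte markers were at 136 to 249 CPM and 76.6 to 155 CPM.

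Markers of other cell types moved with the treatment in which Havcr2 and Pdcd1 rose. The summed level of 8 CD8 T cell markers was 4183 to 4992 CPM in non-treated and 4947 to 6396 CPM in anti-PD-L1 libraries, with Cd8a called higher by 0.38 and Cd3g by 0.32 on the log2 scale without KT13 and KT21 (adjusted p = 0.00301 and 0.0428 by edgeR). The summed level of 12 macrophage and monocyte markers was 136 to 249 CPM in non-treated and 76.6 to 155 CPM in anti-PD-L1 libraries. Of these markers 11 were tested. With 12 libraries 2 of 11 were called lower, against 0.395% of all genes, Lyz2 at -1.50 and C1qa at -1.001 (adjusted p = 0.0461 and 0.0317 by edgeR). With 10 libraries 3 of 11 were called lower, against 1.36%. Tumor epithelium markers (5 genes) summed to 15.1 to 32.3 CPM and 7.91 to 20.3 CPM, and stroma markers (6 genes) to 19.8 to 81.7 CPM and 9.55 to 25.2 CPM. Dendritic cell markers (8 genes), B cell markers (4 genes) and neutrophil markers (4 genes) summed to 40.4 to 69.4, 2.53 to 7.13 and 0 to 3.37 CPM over all libraries. The means of 4 of 4 neutrophil, 3 of 4 B cell, 5 of 8 dendritic cell and 2 of 5 tumor epithelium markers were under 1 CPM, and none of the markers was at 0 in all 12 libraries. The part of these cells in the changes of Havcr2, Pdcd1 and Ctla4 was not tested.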

How the data were processed

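The authors deposited raw counts of reads per gene, 1 column for each of 12 libraries. Per the labels and methods, reads of 75 bp were trimmed with Cutadapt, aligned with HISAT2 to mm10, and assigned to genes with featureCounts of Subread (1.6.4 in the submitters' processing notes). The Cutadapt version is given differently in the sources, and strand and multi-mapping settings were not given in the sources used here. Intervals cover the spread between libraries, and reads carry no molecular identifiers.

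Symbols came from GENCODE vM21 and matched 52403 of 52636 identifiers. Genes were filtered with filterByExpr and scaled by TMM (edgeR 4.0.16, R 4.3.3). edgeR's quasi-likelihood F test compared 4 conditions in 1 fit without covariates, with Benjamini-Hochberg adjustment over all genes tested and calls at an adjusted p under 0.05. Averaged comparisons weight the conditions equally. CPM are TMM-normalized and not divided by gene length. Alternatives were DESeq2 1.42.0, voom of limma 3.58.1 with sample quality weights, other normalizations and filters, only the groups compared, and libraries left out. The fit was tested on simulated data. Within groups no library was a copy of another (chi-square per degree of freedom at least 11.9), and pairs across groups were not compared. The p-values measure the spread between libraries, each a pool of 3 mice, taken as independent.

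The members, lists and tests were chosen with earlier results of these data known. All 10 members are named. From the lists of ligands, paired activating receptors, other inhibitory receptors, downstream signaling, transcriptional regulators and cell type markers, genes called in a comparison are named (at most 4 each). Not every called cell type marker is named. Adora2a is also named and, for 5 members, the 3 closest genes by Spearman correlation. Other genes are given as examples, chosen after their values were seen.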

Additional observations from a re-analysis of the deposited data

How the results depend on the processing

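Havcr2 was called with anti-PD-L1 averaged over GFP under all 9 alternatives and with each library left out in turn. The number of members called there (1, against 0.395% of all genes) became 3 without KT13 and KT21 (1.36%). It became 2, Pdcd1 and Havcr2, with DESeq2 in either set, with no filter beyond 1 count and with voom weights. For GFP averaged over treatments (0), it became 2 with no filter (Lag3 and Ctla4). It became 1 with DESeq2 in either set (1.11% of all genes with 12 libraries), voom weights (0.889%) or without KT13 and KT21 (1.08%). For anti-PD-L1 in GFP+ cells (0), it became 2 with voom weights, without KT13 and KT21 (0.563% of all genes) and with DESeq2 without them. It became 1 with DESeq2 (0.697%) or no filter, and 0 to 1 when 1 library was left out. For anti-PD-L1 in GFP- cells (0), it became 1 without KT13 and KT21 (0.373% of all genes), with DESeq2 without them and with only the 2 groups compared. For GFP after anti-PD-L1 (0), it became 1 with DESeq2 without KT13 and KT21 (0.502% of all genes). The cause of these shifts was not tested. Counts without a share of all genes beside them had none calculated, and cannot be set against the other genes. The sign changed for the following values. Havcr2 with GFP after anti-PD-L1 was 0.033 with voom weights, 0.049 without KT13 and KT21 and 0.044 with DESeq2 without them. Cd160 with treatment was -0.0094 with voom weights, -0.0064 with upper-quartile normalization, -0.020 without KT13 and KT21 and -0.029 with DESeq2 without them. Cd274 with GFP was -1.0e-04 with no filter. Lilrb4a with GFP was -0.38 without KT13 and KT21 by edgeR and by DESeq2. With 1 library left out, averaged log2 fold changes with treatment ranged from -0.029 to 0.066 for Cd160, from -0.0097 to 0.26 for Cd274 and from -0.28 to 1.38 for Tigit, and averaged differences with GFP from -0.15 to 0.12 for Cd274 and from -0.31 to 1.18 for Lilrb4a. In GFP+ cells the change with treatment ranged from -0.17 to 0.97 for Ctla4 and from -0.50 to 1.28 for Lag3, and after anti-PD-L1 the difference with GFP ranged from -0.22 to 0.053 for Havcr2 and from -0.12 to 0.10 for Pdcd1. Tigit and Lilrb4a have no value under the filter of 10 counts in every library. No paired analysis was possible because the labels give the libraries of different groups no shared replicate numbers. Whether GFP+ and GFP- libraries came from the same pools of mice is not stated. The fit treated all libraries as independent. If pools were shared, the averaged comparisons hold fewer independent pools than libraries, and their p-values could be too small or too large. Depth limits Tigit and Lilrb4a, which had at most 21 and 37 reads per library.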
